A study of Homo sapiens with 4 samples.

Results

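Gene expression in spheroids of HCT116 was compared with that in spheroids of SW620, across all genes, gene families and transcripts. HCT116 is an established line from a human colon carcinoma, and SW620 is an established line from a lymph node metastasis of a colon carcinoma. The comparison took each gene with at least 1 FPKM in 1 or both of the 2 libraries, which gave 16005 of the 58740 entries in the gene table, 12803 of them protein coding. Where a pair of levels is given, HCT116 comes first. FPKM are fragments scaled to transcript length and to library size, so levels can be set side by side between genes. The series holds 4 libraries of colon lines, and the other 2, from DLD-1 (colon cancer) and HCEC-1CT (colon), enter here only as context. All were grown for 7 days as spheroids on a surface of low attachment in medium with 10% serum, and total RNA came from the compact spheroids of 2 plates. The labels give HCT116 and SW620 as epithelial cells from colon cancer with the genotype WT. Each line has 1 library, so every value below is a level or a ratio of 2 libraries, with no replicate check, no error and no test. A ratio therefore describes these cultures, and differences between lines and between culture or library batches cannot be told apart.

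As background, colon epithelium is renewed from crypts, where Wnt ligands stabilise beta-catenin and keep stem cells dividing, while cells that leave the crypt build a brush border or secrete mucus. Most colorectal carcinomas keep Wnt signalling switched on by a mutation, in HCT116 in beta-catenin itself and in SW620 in APC, a protein that helps to destroy beta-catenin. HCT116 is known for defective DNA mismatch repair, and SW620 for proficient repair. None of these mutations was read from the present data.

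The libraries corresponded to about 25300000 fragments in HCT116 and 28700000 in SW620, so that a 2 kb transcript at 1 FPKM rests on 50.6 and 57.5 fragments. Nuclear protein-coding genes took 53.5% and 61.9% of the summed FPKM of HCT116 and SW620, transcripts of the mitochondrial genome 10.6% and 3.91%, and the small RNAs 7SL and 7SK 20.2% and 17.04%. All 10 colon epithelium markers were measured in at least 1 of the libraries, with a summed level of 1623 FPKM in HCT116 and 6776 FPKM in SW620. Most of that sum came from the keratins KRT8, KRT18 and KRT19, and the markers did not share a direction. These keratins, CDH1 and VIL1 were 2-fold or more higher in SW620. The claudins CLDN7 (45.6 and 11.9 FPKM), CLDN4 (20.3 and 6.93 FPKM) and CLDN3 (21.96 and 9.48 FPKM) were so in HCT116. The adhesion molecule EPCAM stood at 144 and 237 FPKM. The brush border marker VIL1, at 0.0919 FPKM in HCT116, was the only marker of this list near 0 in a library. Of the markers of other cells, 3 of 11 for fibroblasts, 2 of 7 for endothelium, 2 of 10 for leukocytes, 0 of 5 for red cells and 1 of 5 for neuroendocrine cells reached 1 FPKM in either library. Their summed levels were higher in SW620 for fibroblasts (14.3 and 29.1 FPKM), endothelium (3.53 and 16.7 FPKM) and leukocytes (6.02 and 41.8 FPKM), and PECAM1, an endothelial marker, stood at 0.645 and 14.996 FPKM while CDH5, which defines that cell type, was at 0 and 0.0832 FPKM. Their part in the results was not tested. In bulk RNA, fewer cells of a type and less RNA per cell cannot be told apart.

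At 4-fold or more, 700 genes (4.37% of those measured) were higher in SW620 and 632 (3.95%) were higher in HCT116. Among protein-coding genes the counts were 556 (4.34%) and 549 (4.29%). Each ratio is log2 of SW620 over HCT116 after 1 FPKM was added to both as a pseudocount, so a negative value marks a gene that is higher in HCT116, and the change of low genes is understated. The split depends on that pseudocount: with 5 in its place, 261 and 119 genes passed, so that 68.7% of the calls were higher in SW620 in place of 52.6%. The median over all measured genes was -0.11, and 46.6% of genes lay within 1.5-fold. The pair differed in fewer genes than other pairs of the series, with 8.32% past 4-fold in either direction against 10.6% for DLD-1 and HCT116 and 10.2% for DLD-1 and SW620. An exact 0 was common among the widest differences: 40 protein-coding genes with at least 10 FPKM in SW620 were listed at 0 in HCT116, and 23 in the other direction. The 0 values in HCT116 included 10 measured histone genes, among them HIST1H1B and HIST1H1D, which dividing cells use. A value of 0 in an FPKM file can also be a failed assignment of fragments, which was not tested. A 0 is therefore given only as listed.

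**Figure D1:**
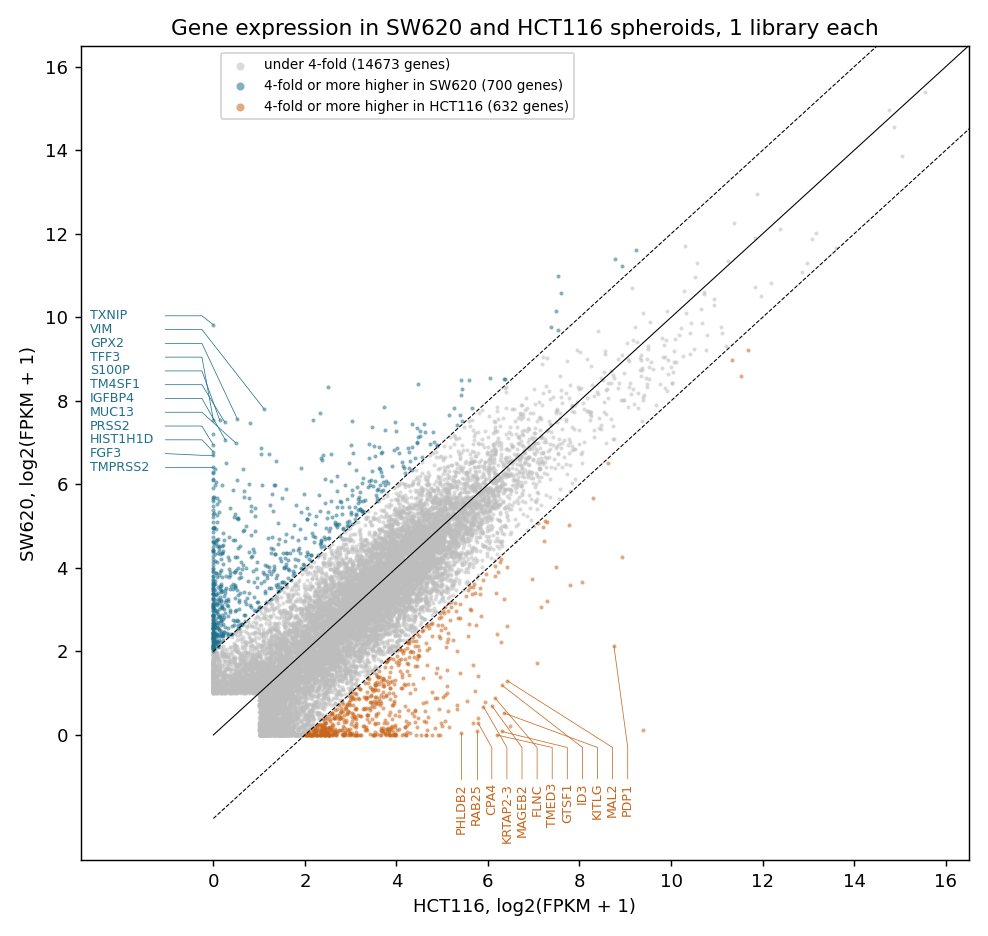
Levels of the 16005 measured genes in HCT116 (x axis) and SW620 (y axis), each as log2(FPKM + 1), 1 point per gene. The solid line marks equal levels and the dashed lines 4-fold. The 700 blue genes are 4-fold or more higher in SW620 and the 632 orange ones in HCT116. Named points are the 12 protein-coding genes per direction with the largest ratio, most of them at or near 0 in the other library.

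The genes furthest above HCT116 in SW620 were mainly secreted, surface and redox proteins, beside a linker histone and the mesenchymal filament VIM. TXNIP (chromosome 1, 145992435 to 145996600 in hg38, ENSG00000265972) binds thioredoxin and restrains glucose uptake, and it was listed at 0 FPKM in HCT116 and at 904 FPKM in SW620. TFF3, a trefoil peptide of goblet cells (chromosome 21, 42311667 to 42315651), was listed at 0 and 186 FPKM. In DLD-1 they stood at 476 and 65.8 FPKM. The calcium-binding S100P stood at 0.102 and 184 FPKM (log2 ratio 7.39), the surface protein TM4SF1 at 0.188 and 179 FPKM (7.24) and the intestinal glutathione peroxidase GPX2 at 0.438 and 189 FPKM (7.04). GPX2 was also low in DLD-1, at 1.81 FPKM, which leaves SW620 as its single high library. Trypsinogen PRSS2 and the membrane protease TMPRSS2 were listed at 0 in HCT116 and at 122 and 83.9 FPKM in SW620. FGF3, a fibroblast growth factor, was listed at 0, 0 and 0 FPKM in HCT116, DLD-1 and HCEC-1CT and at 103 FPKM in SW620. The list closed with IGFBP4, which binds insulin-like growth factors, at 0.198 and 133 FPKM, the linker histone HIST1H1D at 0 and 109 FPKM, the intermediate filament VIM at 1.16 and 223 FPKM (6.69) and the mucin MUC13 at 0.400 and 127 FPKM (6.51).

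The genes furthest above SW620 in HCT116 were of mixed kinds. PDP1, a phosphatase that activates pyruvate dehydrogenase (chromosome 8, 93857807 to 93926066, ENSG00000164951), stood at 430.3 FPKM in HCT116 and 3.39 FPKM in SW620, a log2 ratio of -6.62. In DLD-1 and HCEC-1CT it stood at 35.4 and 20.8 FPKM, between both lines. GTSF1 and MAGEB2, which are normally confined to germ cells, stood at 77.7 against 0.0603 FPKM and at 66.8 against 0.627 FPKM. The cargo protein TMED3 was listed at 72.2 and 0 FPKM. KITLG, the ligand of the receptor KIT, stood at 80.5 and 0.441 FPKM (-5.82). RAB25 and MAL2, which direct membrane traffic in polarised epithelia, stood at 52.97 against 0.0625 FPKM and at 84.9 against 1.46 FPKM, and both were as high in DLD-1, at 80.5 and 78.9 FPKM. SW620 was the low library among the cancer lines. The others were the carboxypeptidase CPA4 (54.2 and 0.218 FPKM), the cortical protein PHLDB2 (41.8 and 0.0341 FPKM), the filamin FLNC (70.1 and 0.852 FPKM), the hair keratin-associated KRTAP2-3 (58.8 and 0.601 FPKM) and ID3, an inhibitor of basic helix-loop-helix factors (78.5 and 1.28 FPKM).

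Outside protein-coding genes, the widest ratios belonged to long noncoding RNAs, pseudogenes and short RNAs. IGFL2-AS1 was listed at 0 and 146 FPKM and LINC01559 stood at 0.739 and 176 FPKM, both of the first kind. TRBC2, a constant segment of the T cell receptor beta chain with the near-identical copy TRBC1, was listed at 0 FPKM in HCT116 and 78.2 FPKM in SW620, while the T cell markers CD3D and CD3E were at 0.523 and 0 FPKM in SW620. The pseudogene FKBP9P1 stood at 0.147 and 62.6 FPKM. On the HCT116 side, MIR1244-1 stood at 665 and 0.0770 FPKM. Its precursor sequence has copies elsewhere in the genome, so its level is uncertain. The pseudogene RPL32P29 (88.0 and 0.165 FPKM), the mitochondrial transfer RNA MT-TC (50.2 and 0.219 FPKM) and the unnamed locus XLOC_003704 on chromosome 1 (54.2 and 0.332 FPKM) followed. No source used here says whether the counting used strand, so an antisense gene and its partner cannot be told apart.

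TXNIP and its paralog ARRDC4, both arrestin-domain proteins that respond to glucose, lay on opposite sides, since ARRDC4 stood at 52.2 FPKM in HCT116 and 16.7 FPKM in SW620. Their promoters are shown because both genes are known targets of the carbohydrate response factor, which binds paired E-box-like sites. Of 32 measured genes of the thioredoxin, peroxiredoxin and glutathione systems and the arrestin-domain family, 4 were 2-fold or more higher in SW620 and 6 in HCT116, with a median of -0.06. The 4 were TXNIP, GPX2, GPX3 and GPX1, the last at 19.1 and 80.7 FPKM, and TXNRD1, thioredoxin reductase, was among the 6, at 187 and 48.9 FPKM. The windows below are RefSeq sequence of GRCh38.p14, 250 bases up to the transcription start, written 5' to 3' on the strand of the gene. Capitals mark a pair of CACGNG sites with 5 bases between them, searched on both strands, each site of which can overlap an E-box. TXNIP covers chr1:145996580-145996829, minus strand, and ARRDC4 covers chr15:97960453-97960702, plus strand. The pair occurred once in the TXNIP window and not in that of ARRDC4, and 0.0456% of 35116 promoter windows of this length held it.
TXNIP: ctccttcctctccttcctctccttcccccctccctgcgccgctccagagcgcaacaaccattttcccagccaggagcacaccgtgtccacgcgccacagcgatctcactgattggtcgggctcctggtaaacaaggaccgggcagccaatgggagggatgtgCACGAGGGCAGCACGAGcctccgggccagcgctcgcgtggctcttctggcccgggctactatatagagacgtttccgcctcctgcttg
ARRDC4: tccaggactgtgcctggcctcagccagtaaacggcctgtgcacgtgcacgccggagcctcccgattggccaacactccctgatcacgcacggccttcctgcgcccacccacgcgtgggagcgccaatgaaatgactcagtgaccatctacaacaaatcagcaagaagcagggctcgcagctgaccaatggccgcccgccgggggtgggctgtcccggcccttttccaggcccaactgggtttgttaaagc
A match is a description of letters, and a window without the match says only that these letters are not in it.

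Gene lists and symbol families were then described by how many measured members were 2-fold or more higher in each line, beside 14.2% of all measured genes that were higher in SW620 and 16.6% that were higher in HCT116 (30.7% in either direction). Of the groups plotted, those with the highest medians were those of secretory and absorptive epithelium and of S100 genes, and groups with the lowest were MAGE genes, mitochondrial messenger RNAs and YAP targets. A member under 1 FPKM in 1 library passed the filter only through the other, which fixed the side of its ratio. Most measured goblet and secretory genes were of this kind.

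**Figure D2:**
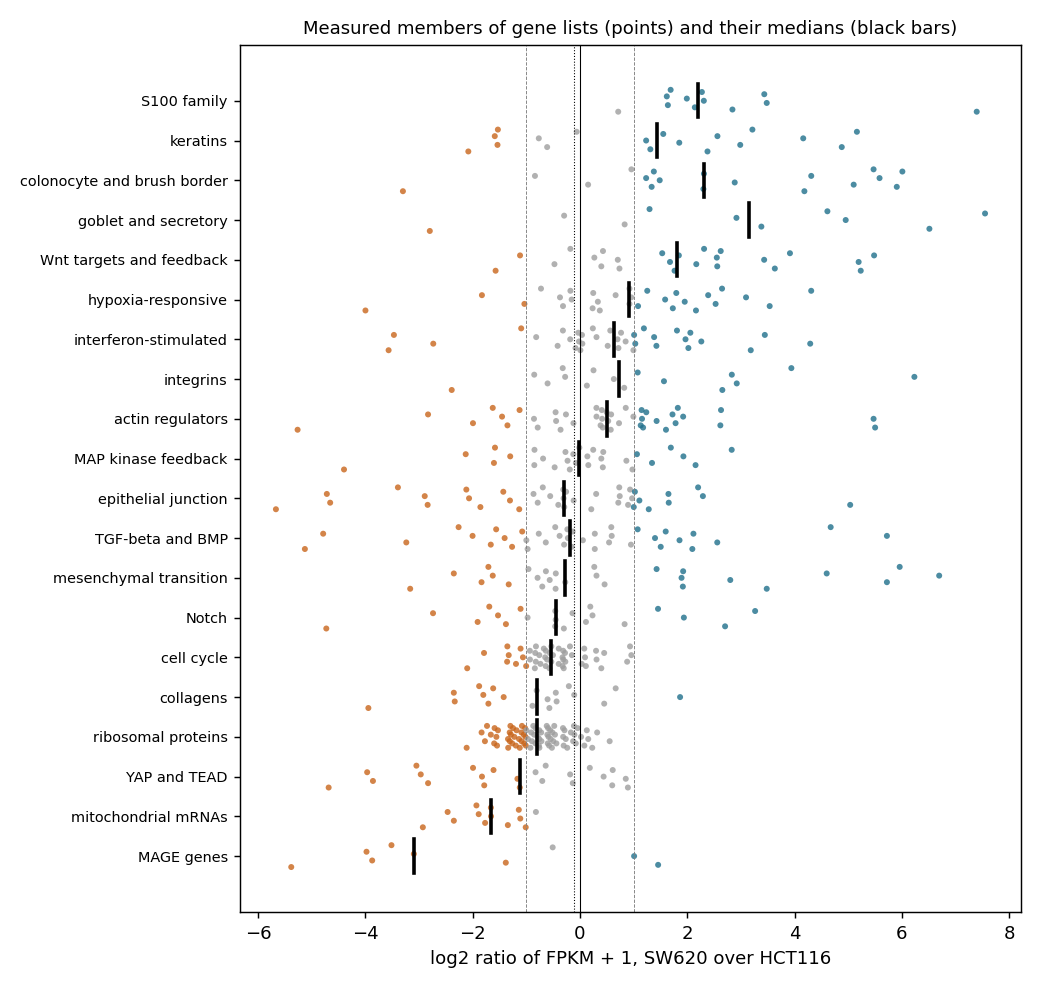
Log2 ratios of FPKM + 1, SW620 over HCT116, of each measured member of 20 gene groups, with the group's median as a black bar. Blue and orange points are 2-fold or more higher in SW620 and in HCT116, grey points are within 2-fold, the dashed lines mark 2-fold and the dotted line the median of all genes, -0.11. Medians run from 3.15 for goblet and secretory genes to -3.10 for MAGE genes, and most groups hold members on both sides.

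Genes of absorptive colonocytes were mostly higher in SW620. Of 18 measured members, 14 were higher in SW620 and 1 in HCT116, with a median of 2.31. CEACAM5, the carcinoembryonic antigen, stood at 0.0400 and 66.0 FPKM (log2 ratio 6.01) in HCT116 and SW620, and its relatives CEACAM6 and CEACAM1 at 0 against 58.9 FPKM and at 0.108 against 19.1 FPKM. Several brush border components were higher in SW620. The actin bundler VIL1 stood at 0.0919 and 47.5 FPKM (5.47) and EPS8L3 at 0.431 and 67.6 FPKM. The scaffold USH1C stood at 8.68 and 70.5 FPKM and the protocadherin CDHR2 at 0.353 and 5.71 FPKM. Ezrin, which links actin to microvilli, was higher in HCT116 and is given with the actin regulators below. The cadherin CDH17 stood at 0.0833 and 20.5 FPKM. Mature colonocyte genes such as CA1, SLC26A3, GUCA2A and FABP1 stayed under 1 FPKM in both libraries, as did 10 of the 28 members in all. The carbonic anhydrase CA2 was the member of this list higher in HCT116, at 20.1 FPKM in HCT116 and 1.14 FPKM in SW620.

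Goblet and secretory genes showed the same side. Of 10 measured, 7 were higher in SW620 and 1 in HCT116, with a median of 3.15. Beside TFF3, the trefoil peptides TFF1 and TFF2 were listed at 0 against 29.96 FPKM and at 0.161 against 27.4 FPKM, the disulfide isomerase AGR2 at 0 and 9.42 FPKM and the membrane mucin MUC1 at 0.256 and 8.48 FPKM. The gel-forming mucins MUC2, MUC5AC and MUC5B did not reach 1 FPKM in either library. The mucin MUC3A, which is not in this list, was higher in HCT116, at 20.1 and 3.41 FPKM (-2.26). GALNT12, which starts mucin glycans, was the member higher in HCT116, at 20.8 and 2.13 FPKM.

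Transcription factors of the colon lineage split. Of 17 measured, 7 were higher in SW620 and 4 in HCT116, with a median of 0.67. EHF, an epithelial ETS factor, stood at 3.51 and 184 FPKM (5.36), the pioneer factor FOXA2 at 0.0163 and 39.0 FPKM (5.30), HNF4A at 2.63 and 24.4 FPKM and KLF5 at 49.2 and 227 FPKM. GRHL2, which maintains epithelial junction genes, was listed at 6.15 FPKM in HCT116 and 0 FPKM in SW620. The intestinal factor CDX2 was low in both, at 3.27 and 6.04 FPKM, and SOX9 was high in both, at 85.9 and 137 FPKM.

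S100 genes, which encode small calcium-binding proteins, lay on the SW620 side. All 12 measured members had a positive ratio, 11 of them past 2-fold, with a median of 2.21 and a summed level of 944 and 5681 FPKM. Of these members, 9 lie within 97 kb of chromosome 1, 8 of them past 2-fold. Some entries there overlap, such as S100A4 and S100A3, so the members are not all separate measurements. S100A4, known for its link with cell motility, stood at 183 FPKM in HCT116 and 2051 FPKM in SW620 (3.48), and S100A6 at 483 and 2398 FPKM (2.31). S100A3 stood at 3.94 and 52.4 FPKM, S100A2 at 4.65 and 39.5 FPKM and S100A16 at 41.1 and 202 FPKM. S100A14, within 2-fold, stood at 51.4 and 84.9 FPKM. Annexins, several of which bind S100 proteins at membranes, had 5 of 10 members higher in SW620 and 1 in HCT116. Those higher in SW620 were led by ANXA9, ANXA7 and ANXA4, the second at 20.8 and 71.2 FPKM. ANXA2 and ANXA1 lay within 2-fold, at 375 against 553 FPKM and at 59.1 against 52.5 FPKM. Of 6 galectins, 4 were higher in SW620 and 0 in HCT116, with LGALS9 at 0.421 and 18.1 FPKM and LGALS3 at 37.2 and 144 FPKM.

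Keratins, the intermediate filaments of epithelia, were higher in SW620 in 11 of 18 measured members and in HCT116 in 4, with a median of 1.43. The simple epithelial pair KRT18 and KRT8 had 194 and 1543 FPKM (2.99) for the former and 600.5 and 3122 FPKM (2.38) for the latter, and KRT19 was at 567 and 1664 FPKM (1.55). Hair keratins KRT81 and KRT86, near-identical copies whose reads may be shared, stood at 0.602 against 56.3 FPKM and at 0.724 against 49.7 FPKM. KRT17, a keratin of stratified and injured epithelium, stood at 0.141 and 19.4 FPKM and KRT80 at 9.62 and 97.5 FPKM. KRT20, the keratin of differentiated colonocytes, was low in both lines, at 2.94 and 8.26 FPKM. The members higher in HCT116 were KRT32, KRT222, KRT13 and KRT10, the last at 38.2 and 12.6 FPKM.

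Junction genes, in contrast with the list of absorptive colonocyte genes, did not lean to SW620. Of 39 measured members, 9 were higher in SW620 and 12 in HCT116, with a median of -0.29. E-cadherin, CDH1, stood at 27.2 FPKM in HCT116 and 129 FPKM in SW620 (2.20), while P-cadherin, CDH3, stood at 45.6 and 0.771 FPKM (-4.72). Claudins divided too, since CLDN1 stood at 0.581 and 50.9 FPKM, and CLDN7, CLDN4 and CLDN3 at 45.6 and 11.9, 20.3 and 6.93, and 21.96 and 9.48 FPKM. OVOL1, a factor that holds cells in the epithelial state, stood at 9.74 and 0.0227 FPKM. The epithelial splicing factors ESRP1 and ESRP2 were on in both lines, at 44.7 against 30.1 FPKM and at 7.80 against 16.9 FPKM. Desmosome genes differed by member, with DSP at 48.4 and 97.9 FPKM, JUP at 98.3 and 165 FPKM, DSG2 at 63.05 and 36.1 FPKM and DSC3 at 3.23 and 0.00998 FPKM.

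Mesenchymal genes had wide ratios in both directions. Of 27 measured members, 10 were higher in SW620 and 6 in HCT116, and the median was -0.27, or 0.29 among members with at least 5 FPKM. Beside VIM, the matrix protein TNC stood at 0.0196 and 62.4 FPKM (5.96), TGFBI at 0.564 and 81.5 FPKM (5.72), the repressor SNAI2 at 0.501 and 9.47 FPKM and ZEB1, a repressor of E-cadherin, at 0.878 and 5.98 FPKM. On the HCT116 side stood smooth muscle actin ACTA2 (14.4 and 0.713 FPKM), COL6A2 (70.2 and 12.95 FPKM) and TWIST1 (2.57 and 0 FPKM). Of the fibroblast and pericyte markers, LUM was higher in SW620, at 0.0518 and 24.5 FPKM, and COL1A1 was higher in HCT116, at 12.1 and 3.00 FPKM. The summed level of that list was 14.3 FPKM in HCT116 and 29.1 FPKM in SW620, FAP and COL1A2 were listed at 0 in both, and PDGFRA, DCN and THY1 were under 0.05 FPKM in both.

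Cytoskeletal and adhesion genes had members on both sides. Of 42 measured actin regulators, 15 were higher in SW620 and 7 in HCT116, with a median of 0.51. The leukocyte-type bundler LCP1 stood at 1.34 and 105 FPKM (5.50), thymosin TMSB4X at 438 and 2711 FPKM and PLS3 at 23.7 and 150.6 FPKM, while ezrin, EZR, which links actin to microvilli, stood at 412 and 188 FPKM. Leukocyte markers were measured for only 2 of 10 genes, LYZ at 0.183 and 24.5 FPKM and CD68 at 4.65 and 16.6 FPKM, with PTPRC, the common leukocyte antigen, at 0.0146 and 0.129 FPKM. Integrins, receptors for matrix, were higher in SW620 in 7 of 16 measured genes and in HCT116 in 1, with a median of 0.73. ITGB7 stood at 0.211 and 90.1 FPKM (6.23), and ITGB4 and ITGA6, which pair in hemidesmosomes, stood at 47.0 against 362 FPKM and at 23.5 against 173 FPKM. ITGA3, at 83.9 and 15.2 FPKM, was the exception. Of the chains that form the laminin ligand of that pair, 2 were higher in SW620, LAMA3 at 12.4 and 157 FPKM and LAMB3 at 82.7 and 228 FPKM. Collagens went the other way: 1 of 19 was higher in SW620 and 8 in HCT116, with a median of -0.81 and COL12A1 at 14.6 and 0.0134 FPKM.

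Wnt targets and feedback genes were mostly higher in SW620. Of 24 measured members, 15 were higher in SW620 and 2 in HCT116, with a median of 1.80. The feedback inhibitors AXIN2, NKD1 and NOTUM stood at 8.16 and 55.4 FPKM (2.62), 1.57 and 93.2 FPKM (5.19), and 13.9 and 86.4 FPKM (2.55). The target factor SP5 stood at 0.726 and 63.9 FPKM, the Wnt acyltransferase PORCN at 10.1 and 166 FPKM and the stem cell factor ASCL2 at 0 and 43.7 FPKM. Proliferative targets were near equal, with MYC at 80.8 and 57.8 FPKM and CCND1 at 53.4 and 70.7 FPKM. DKK1, a secreted antagonist, was higher in HCT116, at 63.9 and 20.8 FPKM. Beta-catenin itself, CTNNB1, stood at 50.8 and 141 FPKM, and APC at 9.61 and 6.58 FPKM. At the receptor level the lean was to HCT116, where 5 of 9 frizzled genes were higher, led by FZD7 at 13.9 and 0.649 FPKM, while FZD10 was listed at 0 and 36.1 FPKM. The ligand WNT16 was listed at 29.9 and 0 FPKM.

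Crypt stem cell markers did not share a direction. Of 18 measured, 6 were higher in SW620 and 4 in HCT116, with a median of 0.37. LGR5, the marker of crypt base stem cells, was listed at 0 and 3.97 FPKM. The surface proteins CD44 and CD24, both used to sort tumour-initiating cells, went opposite ways, CD44 at 179 and 15.3 FPKM (-3.46) and CD24 at 21.99 and 143 FPKM (2.65). ALDH1A1 stood at 1.36 and 44.2 FPKM while its relative ALDH1A3 stood at 239 and 68.5 FPKM. The RNA-binding MSI1 stood at 14.6 and 0.0117 FPKM, and its paralog MSI2 at 27.1 and 31.4 FPKM. PROM1, the antigen CD133, stood at 5.78 and 6.11 FPKM.

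**Figure D3:**
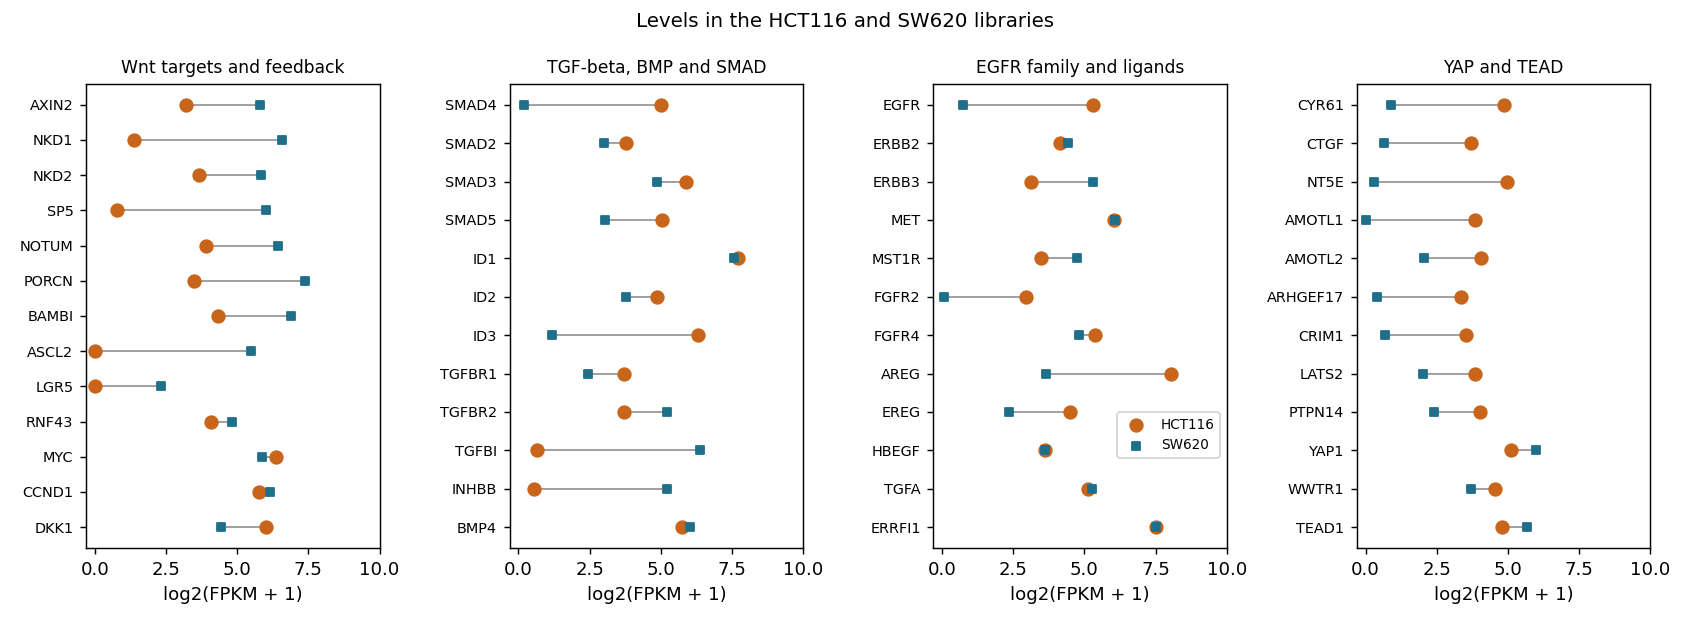
Levels as log2(FPKM + 1) of chosen members of 4 pathway lists in the HCT116 library (orange circles) and the SW620 library (blue squares), with a line joining both values of a gene. Wnt feedback genes such as NKD1 (1.57 and 93.2 FPKM) lie further right in SW620, SMAD4, ID3, EGFR and AREG lie far left in SW620, and the YAP and TEAD targets shown, such as CYR61 (27.8 and 0.844 FPKM), lie left in SW620.

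The TGF-beta and BMP pathway held wide differences in both directions. Of 38 measured members, 10 were higher in SW620 and 10 in HCT116, with a median of -0.19. SMAD4, the shared partner of receptor-activated SMADs (chromosome 18, 51028394 to 51085045, ENSG00000141646), stood at 30.9 FPKM in HCT116 and 0.156 FPKM in SW620, a log2 ratio of -4.79, and at 43.8 FPKM in DLD-1. Of the receptor-activated SMADs, SMAD5 stood at 32.3 and 7.31 FPKM, SMAD3 at 57.8 and 28.4 FPKM and SMAD2 at 12.7 and 7.06 FPKM. The BMP targets ID1 and ID3 parted, ID1 at 209 and 190.1 FPKM and ID3 at 78.5 and 1.28 FPKM. Receptors parted as well, with TGFBR1 at 11.9 and 4.38 FPKM and TGFBR2 at 12.2 and 36.6 FPKM. Members of the list on the SW620 side included TGFBI, the feedback regulator PMEPA1 (8.57 and 40.4 FPKM) and SKIL (6.16 and 29.6 FPKM). The activin subunit INHBB stood at 0.449 and 35.9 FPKM, and the BMP antagonist CHRD at 10.5 and 0.218 FPKM.

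Of 20 measured receptor kinases and ligands around the EGF receptor, 3 were higher in SW620 and 6 in HCT116, with a median of -0.01. EGFR (chromosome 7, 55019021 to 55211628) stood at 38.9 FPKM in HCT116 and 0.650 FPKM in SW620 (-4.60), and its ligands AREG and EREG at 265 against 11.6 FPKM (-4.40) and at 21.6 against 4.17 FPKM. In DLD-1, EGFR stood at 17.1 FPKM. ERBB2 stood at 16.54 and 20.6 FPKM and ERBB3 at 7.65 and 38.4 FPKM. MET stood at 65.1 and 66.9 FPKM, and the EGFR inhibitor ERRFI1 at 181 and 180.0 FPKM. FGFR2 and RET, other receptor kinases, stood at 6.79 against 0.0492 FPKM and at 5.34 against 0.0337 FPKM. Of 29 MAP kinase targets and feedback genes, 6 were higher in SW620 and 5 in HCT116, with a median of -0.01. The phosphatases DUSP6 and DUSP4, often used as a readout of the cascade, stood at 35.4 against 25.3 FPKM and at 90.6 against 74.96 FPKM, while the inhibitor SPRY2 stood at 5.86 and 47.7 FPKM and its relative SPRY1 at 25.8 and 9.90 FPKM.

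Ephrins and their receptors guide cell position along the crypt. Of 16 measured, 7 were higher in SW620 and 3 in HCT116, with a median of 0.59. The kinase-inactive receptor EPHB6 stood at 6.38 and 62.8 FPKM, EPHA2 at 81.9 and 314 FPKM, and the ligands EFNB1 and EFNB2 at 10.3 against 61.5 FPKM and at 20.2 against 97.5 FPKM. EPHB4 stood at 24.4 and 2.19 FPKM. The crypt receptors EPHB2 and EPHB3, both Wnt targets, were within 2-fold, at 8.49 against 14.5 FPKM and at 6.93 against 9.99 FPKM.

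Cell cycle genes were slightly lower in SW620. Of 49 measured, 0 were higher in SW620 and 9 in HCT116, with a median of -0.53. CCNE1, the cyclin of S phase entry, stood at 14.2 and 2.54 FPKM (-2.10), the licensing factor CDT1 at 15.7 and 3.83 FPKM, PCNA at 75.1 and 34.3 FPKM and the proliferation marker MKI67 at 13.2 and 5.23 FPKM. Others were as high in SW620 or higher within 2-fold, such as TOP2A at 13.2 and 26.2 FPKM and CDK1 at 18.4 and 25.6 FPKM. Of 16 cell cycle inhibitors and retinoblastoma genes, 6 were higher in SW620 and 1, CDKN1A, in HCT116. CDKN2A, which encodes p16 and ARF, stood at 21.7 and 48.1 FPKM, CDKN2C at 3.04 and 9.75 FPKM and CDKN1B at 16.7 and 35.0 FPKM.

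Genes driven by YAP and TEAD, the effectors of the Hippo pathway, leaned to HCT116. Of 23 measured members, 12 were higher in HCT116 and 0 in SW620, with a median of -1.12. The classic targets CYR61 and CTGF, secreted matrix proteins, stood at 27.8 against 0.844 FPKM (-3.97) and at 11.98 against 0.569 FPKM (-3.05). NT5E, the surface nucleotidase CD73, stood at 30.5 and 0.225 FPKM, the angiomotin AMOTL1 at 13.5 and 0 FPKM and its relative AMOTL2 at 15.4 and 3.12 FPKM. Of the regulators themselves, YAP1 stood at 33.8 and 62.0 FPKM, TEAD1 at 26.6 and 50.3 FPKM and WWTR1, which encodes TAZ, at 22.2 and 12.05 FPKM. CTGF was also low in DLD-1, at 0.256 FPKM, so the high library among the cancer lines was HCT116. Its promoter is shown since its TEAD motifs are the textbook example of the pathway: RefSeq CCN2, GRCh38.p14, chr6:131951373-131951622, minus strand, with capitals at GGAATG, searched on both strands.
CTGF: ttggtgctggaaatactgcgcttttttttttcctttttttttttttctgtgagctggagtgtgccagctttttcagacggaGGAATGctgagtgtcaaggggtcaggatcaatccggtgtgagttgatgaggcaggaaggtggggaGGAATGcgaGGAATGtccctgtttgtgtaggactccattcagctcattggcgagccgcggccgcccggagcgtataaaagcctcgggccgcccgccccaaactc
The window held 3 matches, against at least 1 in 11.9% of all promoter windows. Among the genes of this list that were higher in HCT116 and had a window, 3 of 8 (CTGF, AMOTL2 and PTPN14) held the motif. Members within 2-fold were not counted, and the list is of known targets, so this share says nothing about direction.

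Genes that respond to low oxygen were more often higher in SW620. Of 29 measured members, 13 were higher in SW620 and 3 in HCT116, with a median of 0.92. Carbonic anhydrase CA9, a common marker of hypoxia, stood at 4.27 FPKM in HCT116 and 103 FPKM in SW620 (4.31), the oxygen sensor EGLN3 at 6.84 and 89.96 FPKM and the angiogenic factor VEGFA at 34.3 and 203 FPKM (2.53). Glucose transporters SLC2A1 and SLC2A3 stood at 179 against 1129 FPKM (2.65) and at 19.4 against 173 FPKM, and DDIT4, an inhibitor of mTOR, at 166 and 874 FPKM. Several textbook members did not differ past 2-fold, among them LDHA (526 and 663 FPKM), ADM (32.1 and 24.6 FPKM) and NDRG1 (207 and 182 FPKM). BNIP3, which marks mitochondria for removal, was the opposite of CA9, at 17.1 and 0.135 FPKM (-3.998), while its paralog BNIP3L stood at 50.5 and 108 FPKM. BNIP3 was also near 0 in DLD-1, at 0.0512 FPKM. Of 27 glycolysis and pentose phosphate genes, which share both transporters and PGK1 with this list, 7 were higher in SW620 and 1, RPIA, in HCT116, with GAPDH at 1477 and 2003 FPKM.

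Both CA9 and BNIP3 carry the core of the hypoxia response element upstream of their RefSeq start. The last match begins 18 bases from that start in CA9 and 133 bases in BNIP3. Their windows are shown because these genes went opposite ways. Capitals mark ACGTG on either strand in RefSeq windows of GRCh38.p14. CA9 covers chr9:35673678-35673927, plus strand, with 1 match, and BNIP3 covers chr10:131981924-131982173, minus strand, with 2 matches that overlap in a palindrome also known as an E-box.
CA9: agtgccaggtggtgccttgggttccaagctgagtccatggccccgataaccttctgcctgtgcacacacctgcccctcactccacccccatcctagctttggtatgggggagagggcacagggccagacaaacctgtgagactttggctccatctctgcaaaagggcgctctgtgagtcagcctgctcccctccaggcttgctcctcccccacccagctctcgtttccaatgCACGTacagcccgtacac
BNIP3: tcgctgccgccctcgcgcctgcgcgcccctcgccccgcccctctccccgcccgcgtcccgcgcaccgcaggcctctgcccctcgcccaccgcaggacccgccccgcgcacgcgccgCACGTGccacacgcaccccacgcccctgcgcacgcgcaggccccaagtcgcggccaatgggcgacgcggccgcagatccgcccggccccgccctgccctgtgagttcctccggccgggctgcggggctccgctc
This short core occurred in 18.5% of all promoter windows. It was found in 7 of the 9 hypoxia genes higher in SW620 that had a window. Of those higher in HCT116, 1 of 3 held it. The list is of known hypoxia responders, and its members within 2-fold were not counted. These shares therefore say nothing about the direction of a gene.

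Interferon-stimulated genes were mixed by member. Of 36 measured, 13 were higher in SW620 and 4 in HCT116, with a median of 0.63. OAS1, which senses double-stranded RNA, stood at 0.636 and 31.0 FPKM (4.29), the membrane tether BST2 at 0.792 and 18.5 FPKM (3.45) and the antiviral GTPase MX1 at 0.519 and 12.8 FPKM. On the other side stood the ISG15 ligase HERC5 at 10.6 and 0.0469 FPKM (-3.47), and the membrane proteins IFITM1 and IFITM3 at 30.1 against 1.63 FPKM and at 217 against 31.7 FPKM. The signalling factors STAT2 and IRF9 lay within 2-fold, IRF9 at 8.52 and 10.2 FPKM. The windows of HERC5 and BST2 are shown as genes of opposite direction with the same element in capitals, GAAA repeated after 2 bases, on either strand, where overlapping matches run together. They are RefSeq sequence of GRCh38.p14, HERC5 at chr4:88456869-88457118, plus strand, with 3 matches and BST2 at chr19:17405631-17405880, minus strand, with 2.
HERC5: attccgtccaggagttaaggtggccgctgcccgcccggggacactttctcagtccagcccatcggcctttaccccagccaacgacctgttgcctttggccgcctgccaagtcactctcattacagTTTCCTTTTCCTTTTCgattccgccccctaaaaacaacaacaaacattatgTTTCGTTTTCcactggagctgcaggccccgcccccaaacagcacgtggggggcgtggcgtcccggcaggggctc
BST2: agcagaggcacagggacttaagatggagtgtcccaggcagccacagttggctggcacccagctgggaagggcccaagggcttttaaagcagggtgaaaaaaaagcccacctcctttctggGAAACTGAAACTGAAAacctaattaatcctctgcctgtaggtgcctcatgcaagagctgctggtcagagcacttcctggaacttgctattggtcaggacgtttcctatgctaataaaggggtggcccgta
The element occurred in 3.02% of all promoter windows. It was in 7 of 10 windows of interferon genes higher in SW620 and in 3 of 3 of those higher in HCT116. Since the list is of known interferon responders and members within 2-fold were not counted, these shares say nothing about direction.

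Of 29 measured antigen presentation genes, 6 were higher in SW620 and 6 in HCT116. The immunoproteasome subunits PSMB8, PSMB9 and PSMB10 stood at 0.572 and 28.7 FPKM (4.24), 5.59 and 16.7 FPKM, and 7.32 and 21.3 FPKM, and the trimming peptidase ERAP1 at 1.57 and 11.1 FPKM. On the HCT116 side stood the class II gene HLA-DRA, at 8.16 and 0.363 FPKM. Class I genes, whose reads can be shared between alleles and genes, included HLA-B at 253 and 156 FPKM. Among cytokines and NF-kB genes, 10 of 26 were higher in SW620 and 3 in HCT116, with the chemokine CCL20 at 0.139 and 21.96 FPKM and the growth factor CSF2 at 0.451 and 21.4 FPKM against IL18 at 28.5 and 0.846 FPKM.

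DNA repair genes were close between the lines, with 2 of 27 higher in SW620 and 3 in HCT116. Among mismatch repair genes, MSH3 stood at 1.92 FPKM in HCT116 and 10.7 FPKM in SW620 (1.998), and MSH6, a subunit of the main recognition complex, at 8.16 and 13.9 FPKM. On the HCT116 side stood RAD50, HLTF and MGMT, the enzyme that removes methyl groups from guanine, at 2.68 and 0.0787 FPKM. Among the 20 colorectal cancer driver genes measured, 4 were higher in SW620, including TGFBR2 and CTNNB1, and 1, SMAD4, in HCT116.

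Metabolic and stress groups held contrasts between neighbours in a pathway. Cholesterol synthesis genes had 5 of 24 members higher in SW620 and 0 in HCT116, with the sterol isomerase EBP at 6.37 and 28.3 FPKM. In the amino acid and unfolded protein response list, 7 of 34 were higher in SW620 and 8 in HCT116. Serine synthesis showed both directions, with PHGDH at 23.1 and 7.53 FPKM, PSAT1 at 28.3 and 27.2 FPKM and PSPH at 5.50 and 56.8 FPKM (3.15). Amino acid carriers did too, SLC1A5 at 41.3 and 364 FPKM (3.11) and SLC7A5 at 122.6 and 34.3 FPKM (-1.81). ASNS, asparagine synthetase, stood at 55.5 and 9.40 FPKM, while its activator ATF4 stood at 157 and 157 FPKM. In the drug and aldehyde metabolism list, 9 of 35 were higher in SW620, including the reductases AKR1C2 and AKR1C3 (7.17 and 56.9 FPKM for the latter) and CYP3A5 (0.264 and 12.7 FPKM), and 8 in HCT116, including CYP24A1, which inactivates vitamin D, at 29.3 and 0.550 FPKM.

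HOX genes keep a record of position along the body axis and differed by cluster. HOXC genes were higher in SW620 in 5 of 7 measured members and in HCT116 in 0, with a median of 1.08 and HOXC10 at 2.77 and 82.7 FPKM (4.47). HOXB genes were higher in SW620 in 5 of 8, with HOXB6 at 6.71 and 31.9 FPKM, but HOXB13, a factor of distal colon, stood at 3.61 and 0.658 FPKM. HOXA genes had 1 of 10 on each side and a median of -0.36, with HOXA9 at 54.4 and 33.5 FPKM. Cancer-testis genes of the MAGE family lay the other way, with 6 of 9 measured members higher in HCT116, among them MAGEA3 (18.2 and 0.221 FPKM) and MAGEA2 (13.6 and 0 FPKM), which has the near-identical copy MAGEA2B. The 2 higher in SW620, MAGED1 and MAGED2, belong to the branch that somatic tissues express, and MAGED2 stood at 29.2 and 81.9 FPKM.

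Transcripts of cytosolic ribosomal proteins and of the mitochondrial genome leaned to HCT116, while nuclear genes of oxidative phosphorylation did not lean to either line. Of 80 measured ribosomal protein genes, 31 were 2-fold or more higher in HCT116 and 0 in SW620, with a median of -0.81 and RPLP0 at 1049.7 and 415 FPKM. The 13 mitochondrial messenger RNAs had a median of -1.66, with 12 higher in HCT116, from MT-ND6 at 226 and 111.7 FPKM to MT-ND3 at 2962 and 388 FPKM, and MT-ND1 within 2-fold at 1643 and 929 FPKM. The 82 measured nuclear genes of oxidative phosphorylation had a median of 0.07, with 3 on each side. Histone genes, most of which lack poly(A) tails, had 25 of 73 higher in SW620 and 3 in HCT116, and most lay within 2-fold. The 25 include 10 genes listed at 0 in HCT116, among them HIST1H1B at 0 and 76.2 FPKM. HIST1H1C stood at 336 and 813 FPKM. Mitochondrial transcripts were 10.6% and 3.91% of the summed FPKM, and the part of that share in the ratios of other genes was not tested. The 20 housekeeping genes had a median of 0.16, with PGK1 at 80.6 and 364 FPKM and TBP at 8.78 and 3.35 FPKM as the widest on each side apart from RPLP0.

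Ratios also followed the position of genes. This was described over 10823 protein-coding genes with at least 1 FPKM in both libraries on 41 chromosome arms, with plain log2 ratios, no pseudocount added, and with their overall median of -0.10 subtracted. The quartiles of all these genes were then at -0.55 and 0.62. Genes on 18q had a median of -0.83, and 81.6% of its 98 genes lay below the overall median. SMAD4 and SMAD2 are on this arm, though SMAD4, under 1 FPKM in SW620, is not among the 98. Genes on 8q followed at -0.60 (244 genes), the arm of MYC, PDP1 and MAL2. On the other side were Xq (0.88, 191 genes), Xp (0.68, 141 genes), 12p (0.63), 5p (0.54) and 16q (0.50, which holds CDH1 and NKD1). CDH3, also on chromosome 16, stood at 45.6 and 0.771 FPKM. Being under 1 FPKM in SW620, CDH3 did not enter the arm medians. Copy number was not measured, so its part in these shifts was not tested.

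**Figure D4:**
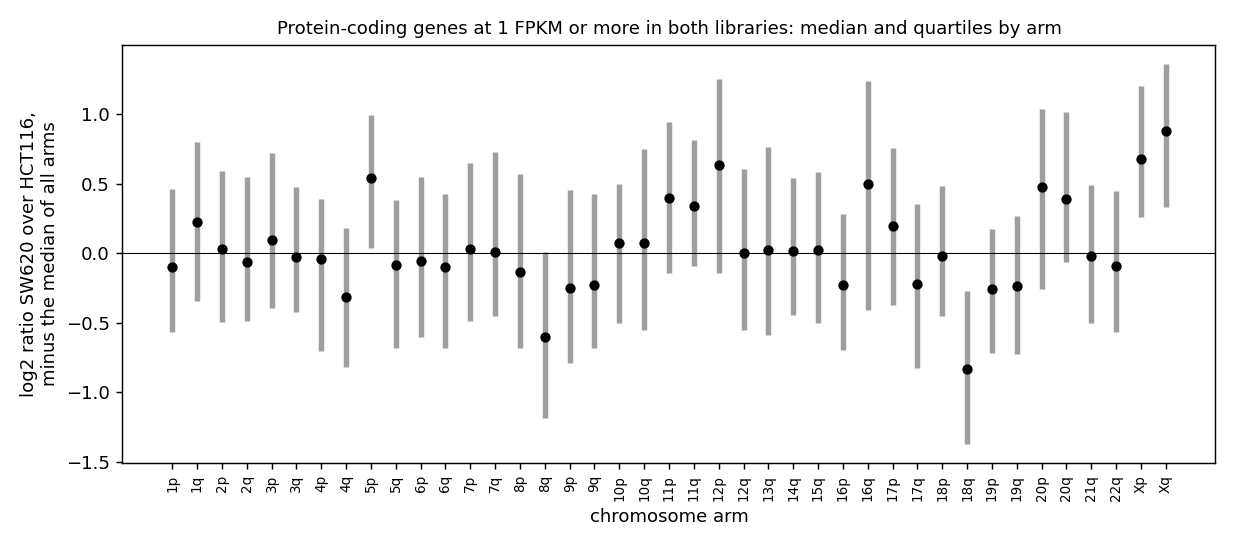
Median log2 ratio of FPKM, SW620 over HCT116 and with no pseudocount, of protein-coding genes with at least 1 FPKM in both libraries on each of 41 chromosome arms (points), less the median of all these genes, with the quartiles of each arm as grey bars. Arm 18q lies lowest at -0.83 and Xq highest at 0.88, while most arms lie near 0 and the quartiles of neighbouring arms overlap.

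Main transcripts, the most abundant transcript of each gene in a library, were compared next. A gene was tested where it had 2 or more transcripts that summed to 5 FPKM or more in each library. Of 7483 such genes, 1841 (24.6%) had a different main transcript, and in 455 (6.08%) the share of either main transcript also differed by 50 percentage points or more between the libraries. Of these 455 switches, 243 were in genes whose total lay within 1.5-fold and 13 in genes past 4-fold. In 302 of them both transcripts are protein coding.

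Among the largest switches, KCTD11, an adaptor that dampens Hedgehog signalling, used KCTD11-202 for 99.99% of its level in HCT116 and for 0.871% in SW620, where KCTD11-201 took 99.1%. The cytoskeletal linker VCL used VCL-202 for 97.1% in HCT116 and 2.55% in SW620, where VCL-201 took 91.1%, while the gene stood at 32.3 and 100.01 FPKM. VCL-202 has 6489 bases and VCL-201 has 5490. The chaperone regulator BAG5 moved from BAG5-201 (97.5% and 0.0468%) to BAG5-203, SLC4A1AP from SLC4A1AP-206 (96.6% and 0.475%) to SLC4A1AP-204 and SCRN1 from SCRN1-201 (98.1% and 3.06%) to SCRN1-206. The HLA pseudogene HCG4P5 completed the first 6. BAG5-201 and BAG5-203 have 4848 and 4867 bases, and transcripts this alike are hard to separate with short reads.

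**Figure D5:**
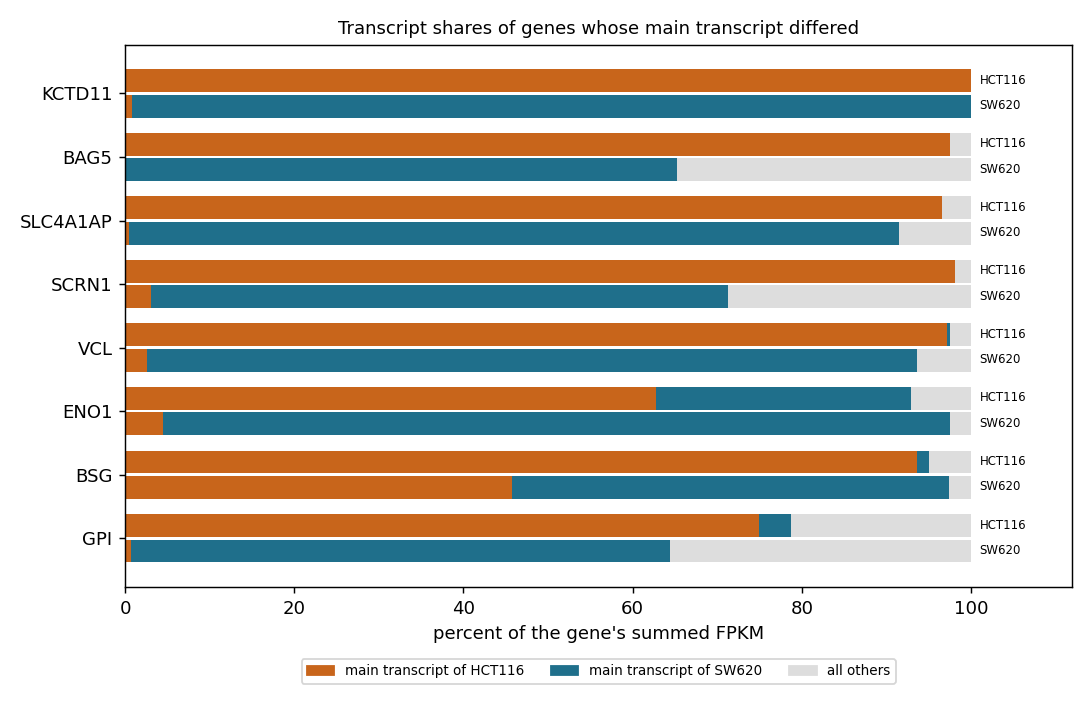
Shares of a gene's summed FPKM, in percent, held by the main transcript of HCT116 (orange), the main transcript of SW620 (blue) and all others (grey), for 8 genes with a switch. Each gene has a bar for HCT116 above a bar for SW620. In KCTD11 the share passes almost whole from KCTD11-202 to KCTD11-201, while in BSG the HCT116 form keeps 45.8% in SW620.

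Among abundant genes with like totals, ENO1, an enzyme of glycolysis, stood at 741 and 942 FPKM, yet a transcript with a retained intron, ENO1-203, held 62.8% of it in HCT116 and 4.45% in SW620. The coding ENO1-201 stood at 224 and 878 FPKM. The reverse was seen for BSG, the chaperone of lactate carriers, where the retained intron form BSG-205 held 1.501% in HCT116 and 51.6% in SW620. GPI, which follows hexokinase in glycolysis, moved from GPI-208 (74.9% and 0.647%) to GPI-202 (3.88% and 63.8%). Of a set of 33 tested genes known for regulated splicing or as cancer drivers, 15 had a different main transcript and 1 switched. Over all tested genes these shares were 24.6% and 6.08%. CD44, ENAH and CTNND1, whose splicing marks epithelial or mesenchymal states, kept the same main transcript in both lines. They were picked from the set and do not stand for its other members. PKM had different main transcripts short of the limit, with a share of PKM-202 that was 40.2 points lower in SW620.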

How the data were processed

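RNA sequencing of spheroids was used from 2 of 4 libraries, HCT116 and SW620, with DLD-1 and HCEC-1CT as context. The FPKM values per gene and per transcript were deposited by the authors. HISAT2, FastQC and the build hg38 are named, per the submitters' processing notes. Which program and annotation gave the FPKM values: not given in the sources used here. Each table had 1 further column of values that matched no sample and was not used. Identifiers were matched to GENCODE 29, and 58275 of 58740 matched. Ratios were log2 of SW620 over HCT116 after adding 1 FPKM to both, over genes with at least 1 FPKM in either library. Limits were 4-fold for genes and 2-fold for members of lists. Depth was read from the steps between low FPKM values, which gave about 25300000 and 28700000 fragments. With 1 library a line, no test was made. Named genes are the 12 protein-coding and 4 other genes per direction with the largest ratios and at least 10 FPKM in the higher library, then up to 6 members of a list in its main direction and 3 in the other, plus known drivers and markers. Other members named within a list were chosen after their values were seen. The members and lists were chosen with earlier results of these data known. Y-linked genes and XIST were left out of lists and named genes. Some further genes are not reported here. Promoter windows are RefSeq sequence of GRCh38.p14. The alternatives were other pseudocounts, filters, scalings and limits. Python 3.11.15, pandas 2.3.3, numpy 2.4.6 and matplotlib 3.10.9 were used, and the scripts were tested on simulated data.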

Additional observations from a re-analysis of the deposited data

How the results depend on the processing

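The number of genes past 4-fold depended on the pseudocount. With 0.1 FPKM added, 1393 genes were higher in SW620 and 1546 in HCT116, and with 5 FPKM added 261 and 119. With a limit of 2-fold the counts were 2270 and 2650. On a TPM scale, which moved the median of all genes by 0.17, they were 1094 and 829. Scaling by the median ratio gave 765 and 581, and scaling to the protein-coding total gave 690 and 651. Main transcript switches numbered 863 among genes with at least 1 FPKM, 134 with at least 20 FPKM, and 1043 with a limit of 30 points. Of 684 list medians recomputed, 634 kept their side of 2-fold, but 41 of these, from medians of at most 0.79 in size, had another sign, among them those of MAP kinase and redox genes with scaling by the median ratio and of mesenchymal genes with a filter of 5 FPKM. A further 25 were then under 2-fold, 21 were then past it, 2 changed sign and passed it, and 2 medians past it changed sign, metallothioneins at -0.81 with a filter of 5 FPKM, and mucins at -0.19 on a TPM scale. The cause was not tested. All 224 recomputed ratios of the 32 genes named across the comparison kept their direction and their side of 4-fold under these alternatives. No paired analysis was possible because each line has 1 library. Depth allows about 50.6 fragments for a 2 kb transcript at 1 FPKM in HCT116, and the spread between cultures is unknown.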

Other observations

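Several of the widest differences lay next to each other in the genome, in stretches chosen after their values were seen (hg38 coordinates). On chromosome 7, from 142749468 to 142871094, all 14 measured genes of the trypsinogen and T cell receptor beta region were 2-fold or more higher in SW620, and 13 of them were listed at 0 in HCT116. Only 3 of the 14 are protein coding, and most others are short receptor segments that lie within the TRBC1 entry, so they are not separate measurements. They included PRSS1 (0 and 3.34 FPKM), PRSS2 (0 and 122 FPKM), TRBC1 (0 and 23.6 FPKM) and, at the end, EPHB6 (6.38 and 62.8 FPKM). PRSS1 and PRSS2, like TRBC1 and TRBC2, are close copies whose reads may be shared. On chromosome 11, from 69641087 to 70436584, FGF19 (11.7 and 107 FPKM), FGF3 (0 and 103 FPKM) and the chloride channel ANO1 (9.63 and 124 FPKM) were higher in SW620, while the other protein-coding genes measured there, among them CCND1, FADD (12.4 and 19.04 FPKM) and CTTN (79.1 and 86.6 FPKM), were under 2-fold. Around the trefoil genes on chromosome 21, from 41304212 to 42396846, 9 of 13 protein-coding genes were higher in SW620, including TMPRSS3 (0.0124 and 23.7 FPKM) and ABCG1 (0.0447 and 9.15 FPKM), and 2, C2CD2 (10.95 and 1.66 FPKM) and PRDM15 (4.73 and 1.73 FPKM), were higher in HCT116. In 265 kb of the histone cluster on chromosome 6, 14 of 32 measured genes were higher in SW620 and 1 in HCT116, and 7 were listed at 0 in HCT116.

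Further groups had members at wide ratios. Of 21 measured Notch genes, 4 were higher in SW620 and 7 in HCT116, with a median of -0.45. The receptors NOTCH3 and NOTCH2 stood at 32.3 and 0.257 FPKM (-4.73) and 13.5 and 1.18 FPKM (-2.74), NOTCH1 at 17.7 and 12.6 FPKM, the ligand JAG1 at 17.3 and 49.2 FPKM and the target HES1 at 34.9 and 28.2 FPKM. Of 23 cytochrome P450 genes, 4 were higher in SW620 and 10 in HCT116, and the 3 furthest on the HCT116 side were CYP24A1, CYP26B1 (14.7 and 0.189 FPKM) and CYP27B1 (9.22 and 0.382 FPKM), which act on vitamin D or retinoic acid. Of 36 proteases and inhibitors, 15 were higher in SW620, with the antitrypsin gene SERPINA1 at 4.10 and 97.6 FPKM and the urokinase receptor PLAUR at 20.6 and 80.4 FPKM, and 8 in HCT116, with the cathepsin CTSL at 28.1 and 1.80 FPKM and the cystatin CST6 at 39.2 and 0.549 FPKM (-4.70).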
